A study of Mus musculus with 8 samples.

Results

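The genes described here encode the nuclear subunits of the mitochondrial respiratory chain and of ATP synthase, measured in mouse red pulp macrophages 2 h after surgery. Members were gene rows whose symbol names such a subunit (the Nduf genes with a, b, c, s or v for complex I, Sdha to Sdhd for complex II, Cyc1 and the Uqcr genes for complex III, Cycs, the Cox4 to Cox8 genes for complex IV, the Atp5 genes for complex V) with at least 10 counts in at least 4 of the 8 libraries. Symbols ending in -ps were left out. Of 55414 gene rows, 87 carried such a symbol and 80 reached the minimum. These were 35 genes of complex I, 4 of complex II, 9 of complex III, 14 of complex IV, 17 of complex V and the cytochrome c gene Cycs. Ndufa4, which bears a complex I name, was counted in complex IV, where its protein is now placed. No member reached the minimum through 1 group alone (0 of 80). Just inside it was Cox6b2, the testis-type subunit 6B, with 4 to 28 counts per library. Just outside were Cox7a1 with 1 to 9 counts and Cox6a2 with 0 to 6. Cox6c2, Cox7b2, Cox8b, Cox8c and a second row named Atp5o also stayed out, with at most 1 count in any library.

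Spleens of WT C57BL/6J mice were the source of the red pulp macrophages, which clear aged erythrocytes and return iron to the blood, and flow cytometry was used to isolate them. One group had undergone cecal ligation and puncture (CLP), a surgical sepsis model in which gut bacteria leak into the abdomen, and the other sham surgery, with 4 libraries in each group. Both groups share the genotype, the 2 h interval and the sort, and the labels state neither ages nor whether each library came from its own mouse, so the spread behind each p-value is that between libraries and could be technical. The series title names sepsis-induced hemolysis as the question, and CLP against sham is the 1 comparison it holds.

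Total counts were 17333748 to 21409078 in the CLP libraries and 15392992 to 25665633 in the sham libraries. All 14 red pulp macrophage markers examined were tested. After CLP 9 were higher (among them Spic, Adgre1 and Csf1r) and 1, the iron exporter Slc40a1, was lower. Their summed level was 56671 to 64398 CPM (a library's counts scaled to a common total) after CLP and 47261 to 58140 CPM after sham surgery. Among all 14004 genes tested, 19.8% were higher and 23.5% lower. Of genes at a mean of 100 CPM or more, where all 14 markers lie, 51.4% were higher and 9.75% lower. All CLP libraries lay above all sham libraries for 18.7% of genes tested and below for 22.8%. Among lists for other cells, 5 of the 6 platelet genes tested (7 listed) were higher after CLP (list sum 21.5 to 27.3 CPM against 8.31 to 9.06 CPM). Of the 3 neutrophil genes tested (10 listed) 2 were higher, S100a8 and S100a9 (10.3 to 27.4 against 3.25 to 13.9 CPM). Of the 8 erythroid genes tested (10 listed) 3 were higher (761 to 1300 against 308 to 1587 CPM, the highest value in Sham replicate 4). Of the proliferation genes 0 of 6 were called (223 to 340 against 149 to 654 CPM). Of the 4 monocyte genes tested (6 listed) 1 was higher, Fn1, and the list's sum did not overlap between groups (15.1 to 20.6 against 12.9 to 14.7 CPM). The T cell list had 0 of 8 called, with sums above sham (110 to 137 against 101 to 109 CPM). Most of these sums came from Cd4 (mean 72.9 CPM in sham and 86.1 CPM after CLP). The NK cell list had 1 of 6 lower, Ncr1, with sums below sham (20.5 to 24.4 against 25.5 to 32.7 CPM). Of the B cell genes 1 of 8 was lower, Cd79b (49.0 to 58.8 against 58.1 to 70.8 CPM). Of the 5 dendritic cell genes tested (6 listed) 1 was higher and 1 lower (35.9 to 45.3 against 29.6 to 41.1 CPM). In the endothelial and stromal list 2 of 7 genes, Col1a1 and Col3a1, were higher (790 to 881 against 796 to 879 CPM). Of the 4 plasma cell genes tested (6 listed) 2 were higher, Prdm1 and Sdc1 (897 to 983 against 282 to 450 CPM). Most of that sum came from Prdm1 (mean 114 CPM in sham and 659 CPM after CLP) and Xbp1 (250 and 258 CPM, not called). Jchain, at 28.9 and 33.7 CPM, was not called, and Mzb1 and Tnfrsf17 were too low to be tested. No gene of these lists was at 0 in every library, while Ly6g, which defines neutrophils, was at 0 in sham and at 0.016 CPM after CLP. Their part in the results below was not tested, and in a sorted bulk sample fewer cells of a type and less RNA per cell cannot be told apart.

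The respiratory chain sits in the inner mitochondrial membrane. Complexes I and II take electrons from NADH and succinate and pass them through coenzyme Q to complex III, from there through cytochrome c to complex IV, where oxygen is reduced, and complex V uses the resulting proton gradient to make ATP. All of complex II and most subunits of the other complexes are encoded in the nucleus, the remainder in the mitochondrial genome. Macrophages stimulated with bacterial products are known for a shift from oxidative phosphorylation toward glycolysis, and complex II and complex I have been studied there as sources of reactive oxygen species.

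Differences between CLP and sham in these genes were small and uneven across the complexes. With the TMM scaling used throughout (a scaling that sets the bulk of genes level between libraries), 12 of the 80 members (15.0%) were higher after CLP and 0 were lower in edgeR's quasi-likelihood test at an adjusted p under 0.05. Among all 14004 genes tested, 43.3% were called, 19.8% higher and 23.5% lower, so the members' share of higher genes lay near that of genes at large. At an unadjusted p under 0.05 the members numbered 20 higher and 0 lower, limma-voom called 12 higher and 0 lower, and DESeq2 19 higher and 0 lower. Leaving out CLP replicate 1 or CLP replicate 4 gave 7 higher members, and leaving out CLP replicate 3 or Sham replicate 1 gave 20. The members' median log2 fold change (CLP minus sham) was 0.15, beside a median of -0.05 for all genes tested, and it was 0.23 without Sham replicate 1. Their extremes were -0.44 and 0.77, and 0 of 80 reached a 2-fold change.

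The direction of these small changes hung on the scaling. When libraries were scaled by their total counts alone, the median of all genes tested moved by -0.32, and 0 members were higher and 18 lower: 13 of complex I, 2 of complex II, 1 of complex III and 2 of complex V. Of all 14004 genes tested, 1286 were then higher and 6435 lower. The members' median was then -0.17 and that of all genes -0.37. Under either scaling 70 of the 80 members lay above the median of all genes. A change of scaling moves all genes by nearly the same amount, so this count could hardly differ between the scalings. Comparisons between complexes within a library do not depend on the scaling, and they are given further on.

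**Figure D1:**
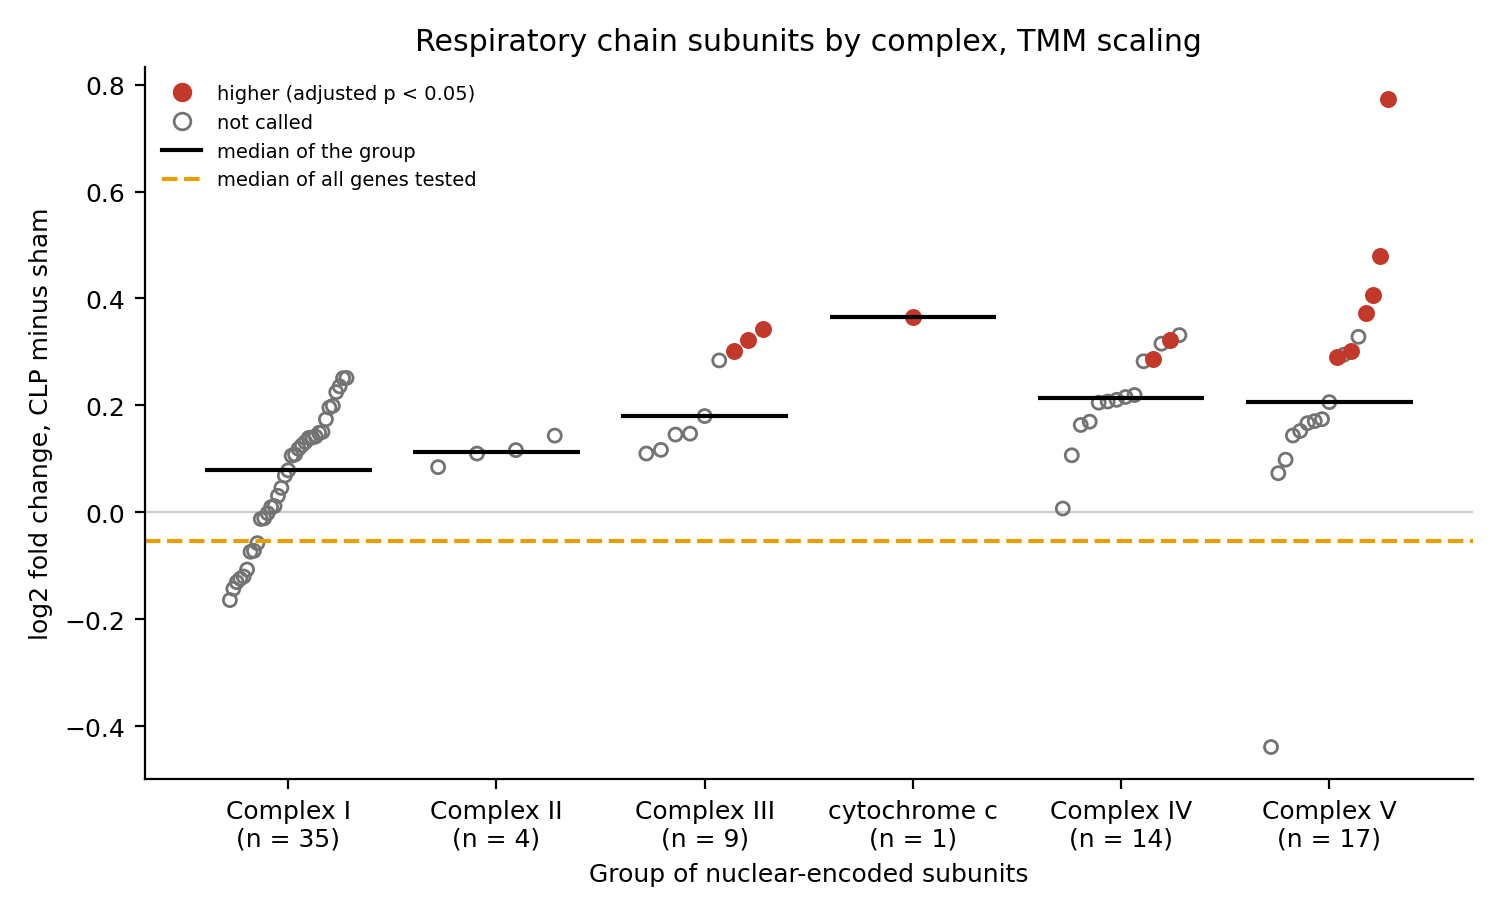
Log2 fold change, CLP minus sham, of each nuclear subunit gene (points) with TMM scaling, grouped by complex, with the group median (black bars) and the median of all genes tested (dashed line, -0.05). Red points passed the test at an adjusted p under 0.05. They number 0 in complexes I and II, 3 in complex III, 1 for cytochrome c, 2 in complex IV and 6 in complex V. Of all genes tested 19.8% were higher. With library totals 0 members are higher, beside 1286 of all 14004 genes.

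The promoters of 4 members are printed for the letters that regulators of respiratory genes are known to bind. RefSeq's table for GRCm38.p6, used for sequence only, held windows from 250 bases before to 50 after the start for 66 of the 80 members, among them 8 of the 12 called higher. The NRF1 motif (matched with any base at 1 position, as in the first capitals of the Sdhd window) occurred on either strand in 17 of these 66 genes (25.8%) and in 5.19% of all 27025 genes in the table. The GABPA motif CCGGAAG occurred in 16 (24.2% against 9.93%), the YY1 motif AAGATGGC in 10 (15.2% against 3.19%) and the CREB motif TGACGTCA in 5 (7.58% against 2.03%). These are letter matches, not matched for base composition between members and all promoters, and no 2 matches overlap in the windows below. The 250 bases before the start are shown 5′ to 3′ on the gene's strand, with motif matches in capitals. Sdhd (chr9:50603850-50604099, minus strand) shows an NRF1 and a GABPA match in a gene that was not called. Uqcrfs1 (chr13:30545317-30545566, minus strand) and Cycs (chr6:50566570-50566819, minus strand), both called higher, each hold a CREB match. The other members with a CREB match, Ndufa10, Ndufa11 and Ndufb2, were not called. Of the 8 called genes with a window, 2 had a CREB match, 2 a GABPA match, 1 an NRF1 match and 0 a YY1 match. Atp5b (chr10:128083057-128083306, plus strand), the called gene with the lowest p among members, has no match to the 4 motifs.
Sdhd: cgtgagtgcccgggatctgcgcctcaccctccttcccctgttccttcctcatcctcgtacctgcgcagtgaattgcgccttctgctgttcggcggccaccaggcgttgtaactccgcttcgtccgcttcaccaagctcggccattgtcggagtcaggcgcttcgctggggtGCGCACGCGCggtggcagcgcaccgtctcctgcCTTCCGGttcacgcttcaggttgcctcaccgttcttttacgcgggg
Uqcrfs1: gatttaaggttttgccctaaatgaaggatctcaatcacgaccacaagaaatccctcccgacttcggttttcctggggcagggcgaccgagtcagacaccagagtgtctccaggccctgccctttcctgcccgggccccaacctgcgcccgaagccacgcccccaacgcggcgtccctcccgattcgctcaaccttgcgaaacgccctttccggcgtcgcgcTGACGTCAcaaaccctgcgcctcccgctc
Cycs: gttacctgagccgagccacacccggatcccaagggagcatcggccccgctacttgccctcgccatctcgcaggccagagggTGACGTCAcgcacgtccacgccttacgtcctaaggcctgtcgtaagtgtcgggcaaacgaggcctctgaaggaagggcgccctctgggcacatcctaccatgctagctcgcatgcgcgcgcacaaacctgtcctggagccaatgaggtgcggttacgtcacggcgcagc
Atp5b: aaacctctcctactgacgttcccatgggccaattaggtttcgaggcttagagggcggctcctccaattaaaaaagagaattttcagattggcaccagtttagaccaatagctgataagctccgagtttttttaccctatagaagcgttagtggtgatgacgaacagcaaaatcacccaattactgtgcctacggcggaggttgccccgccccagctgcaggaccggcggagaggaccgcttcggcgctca

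Complex I, the NADH dehydrogenase and the largest complex of the chain, had 0 of 35 nuclear subunits called in either direction. Among all genes tested 19.8% were higher and 23.5% lower. At an unadjusted p under 0.05 complex I had 1, limma-voom called 0 and DESeq2 called 1. With library totals 13 were lower, beside 6435 of all 14004 genes. With TMM scaling the median log2 fold change was 0.08, with a range from -0.16 for Ndufb9 to 0.25 for Ndufb3. This median became 0.03 without CLP replicate 1 and 0.15 without Sham replicate 1. Of the 35 genes, 26 lay above the median of all genes tested. The 95% interval of the log2 fold change reached a 1.5-fold change for 1 of the 35, Ndufb3 (-0.15 to 0.65), an accessory subunit at 8.27 ± 1.26 CPM in sham (SD, n = 4). Ndufb9 and Ndufb3 were named after their values were seen.

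Ndufs1, the large iron-sulfur subunit of the electron input arm, was at 56.6, 50.7, 52.0 and 54.7 CPM in sham replicates 1 to 4. After CLP it was at 49.6, 51.6, 54.7 and 49.7 CPM. The groups overlapped, and the log2 fold change was -0.06 (95% interval -0.21 to 0.10), which without Sham replicate 1 became 0.004. Ndufv1, which binds NADH, was at 45.4, 39.6, 38.2 and 40.5 CPM in sham and 47.3, 44.2, 45.4 and 41.7 CPM after CLP. These ranges overlapped too (log2 fold change 0.13, 95% interval -0.05 to 0.30).

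The 7 core subunits encoded in the nucleus, which carry the redox centres, had a median log2 fold change of -0.0015, and the 28 accessory subunits one of 0.11. Both sectors had 0 called members. Core subunit counts were 0.371 ± 0.007 of all complex I member counts in sham and 0.366 ± 0.013 after CLP (SD, n = 4), and the groups overlapped.

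Complex II, succinate dehydrogenase, is shared between the respiratory chain and the tricarboxylic acid cycle, and its 4 genes did not pass the test either. Sdha, the flavoprotein that oxidises succinate and the most abundant of the 4 per kilobase of transcript (73.1 CPM per kb), was at 220, 198, 199 and 198 CPM in sham and 229, 218, 215 and 218 CPM after CLP. Sham replicate 1 reached the CLP range, and the other 3 sham libraries lay below all CLP libraries. The log2 fold change was 0.11 (SE 0.07, 95% interval -0.03 to 0.25, adjusted p = 0.201), and with library totals -0.21 and called lower (adjusted p = 0.0119).

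Sdhb, the iron-sulfur subunit, was at 57.8 ± 4.9 CPM in sham and 61.4 ± 9.0 CPM after CLP. The membrane anchors Sdhc and Sdhd were at 104 ± 6 and 69.6 ± 6.0 CPM in sham, and at 113 ± 8 and 77.0 ± 4.7 CPM after CLP. The 3 log2 fold changes were 0.08, 0.12 and 0.14, with overlapping groups for each gene. The highest upper bound of the 4 intervals was 0.33 and the lowest lower bound -0.16, so a 1.5-fold change lay outside all 4 intervals with TMM scaling.

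Complex III, the cytochrome bc1 complex, had a median log2 fold change of 0.18, and 5 of 9 subunits were higher at an unadjusted p under 0.05. Called higher were 3 of 9, beside 19.8% of all genes tested, and 0 were lower. The count became 1 without CLP replicate 4, 5 without CLP replicate 3 and 6 without Sham replicate 1. Uqcrfs1, the Rieske iron-sulfur protein that takes electrons from coenzyme Q, was at 46.9, 39.3, 39.6 and 39.5 CPM in sham and 49.9, 52.4, 52.1 and 55.5 CPM after CLP. All CLP libraries lay above all sham libraries, of which replicate 1 was the highest. Uqcrfs1 rose 1.27-fold (log2 fold change 0.34, SE 0.08, adjusted p = 0.00588 in edgeR), and with library totals the value was 0.03 and not called. It was the only one of the 3 called subunits of this complex whose groups did not overlap.

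The small subunits Uqcrh, the hinge protein between cytochrome c1 and cytochrome c, and Uqcrb, which lies near the coenzyme Q site, were the other 2 called genes. Uqcrh, the most abundant complex III member per kilobase (75.1 CPM per kb), was at 35.3, 36.7, 32.8 and 41.2 CPM in sham and 46.1, 45.2, 39.6 and 51.9 CPM after CLP. Only Sham replicate 4 and CLP replicate 3 crossed. Uqcrh was higher by 0.32 (SE 0.10, adjusted p = 0.0238), but by 0.26 without a call when CLP replicate 4 was left out (adjusted p = 0.0781). Uqcrb was at 33.5, 25.6, 25.1 and 26.6 CPM in sham and 36.0, 33.2, 31.1 and 36.5 CPM after CLP, with Sham replicate 1 inside the CLP range (0.30, SE 0.11, adjusted p = 0.0422). Only leaving out CLP replicate 3 or Sham replicate 1 kept its call (adjusted p up to 0.111 without another library), and with library totals both Uqcrh and Uqcrb were just below 0 (-5.459e-05 and -0.01).

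Cyc1, the cytochrome c1 that hands electrons on, did not pass, with 34.2, 29.1, 32.4 and 37.6 CPM in sham and 38.5, 37.0, 37.8 and 34.3 CPM after CLP (log2 fold change 0.15, 95% interval -0.05 to 0.35). The core proteins Uqcrc1 and Uqcrc2 were at 77.4 ± 5.8 and 75.5 ± 3.3 CPM in sham and at 85.7 ± 1.3 and 85.5 ± 4.4 CPM after CLP, and neither passed; both were picked after seeing their values.

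Cycs encodes cytochrome c, the soluble carrier between complexes III and IV that also triggers apoptosis once released into the cytosol. It was at 10.4, 9.68, 12.4 and 9.50 CPM in sham and 15.4, 11.6, 13.3 and 13.8 CPM after CLP. CLP replicate 2 lay below Sham replicate 3, so the groups overlapped. Cycs was 1.29-fold higher (log2 fold change 0.37, SE 0.13, adjusted p = 0.0461). Leaving out a library kept that call only for CLP replicate 2 and Sham replicate 3 (adjusted p up to 0.124 otherwise), and it did not hold with 1 surrogate variable (0.0574) or with no filter on low counts (0.116). Cycs has processed pseudogene copies, as do many subunit genes, and its level is uncertain because the sources used here do not say how reads matching several places were counted.

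**Figure D2:**
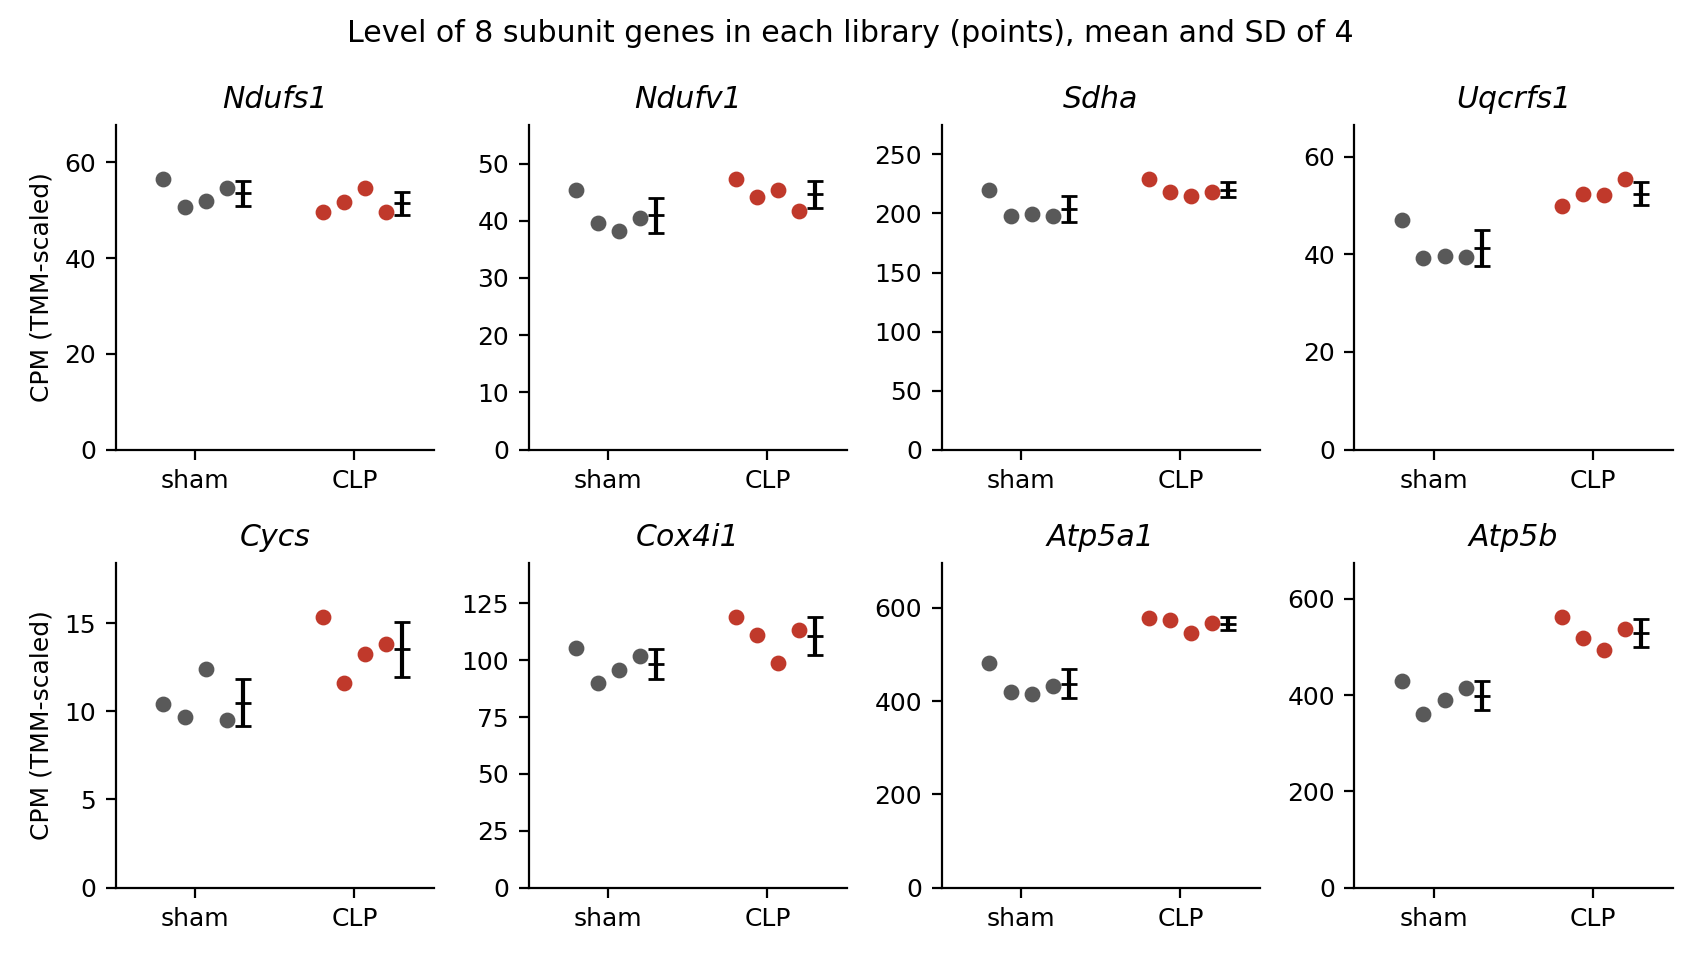
CPM (TMM-scaled, vertical axes from 0) of 8 subunit genes in each of the 4 sham (grey) and 4 CLP (red) libraries, points in order of replicate number, with mean and SD beside them. The groups do not overlap for Uqcrfs1, Atp5a1 and Atp5b, and they overlap for Ndufs1, Ndufv1, Sdha, Cycs and Cox4i1.

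Complex IV, cytochrome c oxidase, had 2 of 14 nuclear subunits higher and 0 lower, beside 19.8% and 23.5% of all genes tested. Its median log2 fold change was 0.21, and 5 subunits were higher at an unadjusted p under 0.05. All 14 lay above the median of all genes tested. Its most abundant members per kilobase were Cox5a (138 CPM per kb) and Cox4i1 (137 CPM per kb), which lie around the mitochondrially encoded core. Cox4i1 was at 106, 90.2, 95.8 and 102 CPM in sham and 119, 111, 99.0 and 113 CPM after CLP, and the groups overlapped (log2 fold change 0.17, 95% interval -0.01 to 0.34). Cox5a was at 82.6 ± 9.5 CPM in sham and 96.0 ± 7.9 CPM after CLP (0.22, adjusted p = 0.0893).

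The called members were Cox6c and Cox7b, small subunits around the core. Cox6c was at 24.7, 19.1, 23.1 and 25.5 CPM in sham and 33.2, 27.5, 26.2 and 28.7 CPM after CLP, without overlap (log2 fold change 0.32, SE 0.11, adjusted p = 0.0404). Cox7b was at 36.9, 33.0, 38.3 and 43.3 CPM in sham and 47.3, 46.2, 40.8 and 50.4 CPM after CLP, with 1 crossing between CLP replicate 3 and Sham replicate 4 (0.29, SE 0.10, adjusted p = 0.0373). Neither call was firm. For Cox6c it depended on CLP replicates 1 and 4 and on Sham replicates 2 and 3, each of which ended it when left out (adjusted p up to 0.117). For Cox7b the libraries were CLP replicates 1, 2 and 4 and Sham replicates 1 and 2 (adjusted p up to 0.108). With no filter on low counts, complex IV had 0 called members, as it did without CLP replicate 1, CLP replicate 4 or Sham replicate 2. It had 1 without Sham replicate 3, 6 without Sham replicate 1 and 7 without CLP replicate 3.

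Several complex IV subunits exist as paralogs that replace each other between tissues. In these macrophages the common forms carried nearly all the signal. Cox4i2, the form linked to low oxygen and to lung, had 21 to 55 counts per library beside 1645 to 2919 for Cox4i1 (2.33 and 137 CPM per kb). Cox6a2, the heart and muscle form, had 0 to 6 counts beside 535 to 1083 for Cox6a1. AA467197 (also called Nmes1), an inducible counterpart of Ndufa4 known from activated macrophages, had 0 to 7 counts in any library, and Ndufa4 itself 570 to 1075. Ndufa4l2, a hypoxia-induced relative, also had 0 to 7 counts. Ndufa4 was at 34.9 ± 4.8 CPM in sham and 40.5 ± 5.8 CPM after CLP, with overlapping groups (log2 fold change 0.21, 95% interval -0.07 to 0.49).

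The level of Cox7a2l was compared with that of its relative Cox7a2 within each library. Cox7a2l was at 94.9 ± 6.2 CPM in sham and 102 ± 10 CPM after CLP, Cox7a2 at 35.2 ± 5.0 and 41.1 ± 1.5 CPM, and Cox6a1 at 33.9 ± 4.1 and 41.3 ± 4.2 CPM (adjusted p = 0.349, 0.108 and 0.0508). Cox6a1 was called higher with DESeq2 (adjusted p = 0.0244), with DESeq2 size factors (0.0314) and without CLP replicate 3 (0.0181) or Sham replicate 1 (0.0148). The log2 ratio of Cox7a2l to Cox7a2 counts differed by -0.13 between CLP and sham, which did not pass (two-sided exact permutation p = 0.343, adjusted p = 0.686 over the 4 pairs that could be tested). The ratio of Cox4i2 to Cox4i1 differed by 0.13 (exact permutation p = 0.6, adjusted p = 0.8). With 4 libraries against 4 the smallest p this test allows is 0.0286.

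Complex V, the ATP synthase, had 6 of 17 members higher and 0 lower, with a median log2 fold change of 0.21 (0.31 without Sham replicate 1) and 8 at an unadjusted p under 0.05. Among all genes tested 19.8% were higher, and 51.4% of those at 100 CPM or more, where Atp5a1 and Atp5b lie. In the catalytic head and central stalk of complex V 3 of 5 genes were higher, and in the c ring 1 of 3. Among the small membrane subunits 2 of 4 were, and in the peripheral stalk 0 of 4. The remaining member, Atp5s, encodes a coupling factor.

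Atp5a1 and Atp5b, the alpha and beta subunits that form the catalytic hexamer, were the 2 most abundant members per kilobase of all 80 (203 and 242 CPM per kb). Atp5a1 was at 482, 419, 416 and 432 CPM in sham and 579, 574, 546 and 567 CPM after CLP. Atp5b was at 429, 361, 390 and 415 CPM in sham and 563, 520, 494 and 538 CPM after CLP. For both genes every CLP library lay above every sham library. Atp5a1 rose 1.30-fold (log2 fold change 0.37, SE 0.07, adjusted p = 0.00151) and Atp5b rose 1.33-fold (0.41, SE 0.08, adjusted p = 0.00145), calls that held without any single library. With library totals both stayed above 0 without a call (0.06 and 0.09).

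In the rest of the head and stalk, Atp5d, the delta subunit of the central stalk, was at 71.2, 68.3, 62.3 and 65.6 CPM in sham and 93.0, 82.9, 71.5 and 79.7 CPM after CLP. CLP replicate 3 exceeded Sham replicate 1 only narrowly, with no overlap (log2 fold change 0.29, SE 0.09, adjusted p = 0.0196). Leaving out CLP replicate 1 ended the call (0.22, adjusted p = 0.0577). Atp5c1, the gamma subunit that turns inside the head, was at 56.1 ± 3.8 CPM in sham and 59.0 ± 4.9 CPM after CLP and did not pass (0.07, adjusted p = 0.516), and for Atp5e, the epsilon subunit, the log2 fold change was 0.14 (adjusted p = 0.285). Both were picked after seeing their values.

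The c ring, the rotor in the membrane, is built from 1 protein that 3 genes encode with different import sequences. Atp5g3 was the most abundant of the 3 genes per kilobase (102 CPM per kb, against 21.9 for Atp5g2 and 3.09 for Atp5g1), at 71.0, 60.0, 60.6 and 73.8 CPM in sham and 79.0, 81.1, 80.4 and 86.8 CPM after CLP. All CLP libraries were above all sham libraries (log2 fold change 0.30, SE 0.08, adjusted p = 0.0138), and the call held without any single library. Atp5g1 was at 13.1 ± 1.5 CPM in sham and 16.1 ± 1.6 CPM after CLP, and Atp5g2 at 15.0 ± 1.9 and 16.9 ± 1.2 CPM. Neither passed (adjusted p = 0.073 and 0.278). The gap per kilobase between Atp5g1 and Atp5g2 comes mostly from the annotated length of the principal transcript, 4715 and 731 bases. For Atp5g3 that length is 723 bases. Between the 3 genes there was no called shift. The within-library log2 ratio of Atp5g1 to Atp5g3 differed by -0.01 (exact permutation p = 0.8, adjusted p = 0.8) and that of Atp5g2 to Atp5g3 by -0.13 (exact permutation p = 0.143, adjusted p = 0.571).

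Among the small membrane subunits, the proteolipid Atp5mpl was at 12.7, 11.6, 11.0 and 13.6 CPM in sham and 18.0, 17.6, 13.5 and 19.3 CPM after CLP. CLP replicate 3 lay just below Sham replicate 4 and the other 3 above all sham libraries (log2 fold change 0.48, SE 0.13, adjusted p = 0.0126). Atp5l, the g subunit, was at 2.75, 3.66, 3.67 and 2.88 CPM in sham and 4.36, 4.65, 8.17 and 4.90 CPM after CLP. It had the highest log2 fold change of the members (0.77, SE 0.24, adjusted p = 0.0206), which rested in part on CLP replicate 3. Without that library the value was 0.52 and the call was lost (adjusted p = 0.054). Atp5l lies under the 5 CPM set for naming and was named after its values were seen.

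The 4 peripheral stalk genes, which hold the head against the rotor, had log2 fold changes of 0.10 (Atp5h), 0.15 (Atp5o), 0.17 (Atp5j) and 0.17 (Atp5f1), named after their values were seen. Atp5s was the 1 member with every CLP library below every sham library, at 2.59 ± 0.40 CPM in sham and 1.90 ± 0.47 CPM after CLP, and it did not pass (-0.44, SE 0.25, adjusted p = 0.186). Counted over all members, CLP lay above sham without overlap for 11 and below for 1, beside 18.7% and 22.8% of all genes tested. Atpif1, the inhibitor that stops ATP synthase from running backward, was at 52.7 ± 11.4 CPM in sham and 58.8 ± 8.8 CPM after CLP and did not pass (0.16, adjusted p = 0.451).

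The ratio of 1 complex to another in the same library does not depend on the scaling factors. Complex V counts summed to 1.65, 1.60, 1.67 and 1.63 times those of complex I in sham and to 1.92, 1.96, 2.05 and 1.96 times after CLP. Every CLP library was above every sham library, and the mean ratio went from 1.64 ± 0.03 to 1.97 ± 0.05 (SD, n = 4). Without Atp5a1 and Atp5b the ratio was 0.601 ± 0.012 in sham and 0.667 ± 0.016 after CLP, still without overlap. The ratio of complex III to complex I was 0.437 ± 0.007 in sham and 0.488 ± 0.016 after CLP, and that of complex IV 0.766 ± 0.031 and 0.851 ± 0.010, both without overlap. The ratio for complex II differed least, with 0.539 ± 0.013 and 0.562 ± 0.011, and 0.548 was the highest sham and 0.553 the lowest CLP value. The cytochrome c ratio overlapped between the groups (0.0131 ± 0.0022 and 0.0161 ± 0.0016). These sums are weighted toward abundant genes and carry no test.

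Shares of all counts do depend on it, as they amount to scaling by library totals, under which the median of all genes was -0.37. As a share of all counts, complex I made up 0.0900 ± 0.0054% in sham and 0.0751 ± 0.0045% after CLP, with every CLP library below every sham library. Complex V made up 0.147 ± 0.009% of the counts in sham and 0.148 ± 0.005% after CLP, with overlapping groups. All 80 members together held 0.395 ± 0.024% in sham and 0.367 ± 0.016% after CLP, and these overlapped.

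**Figure D3:**
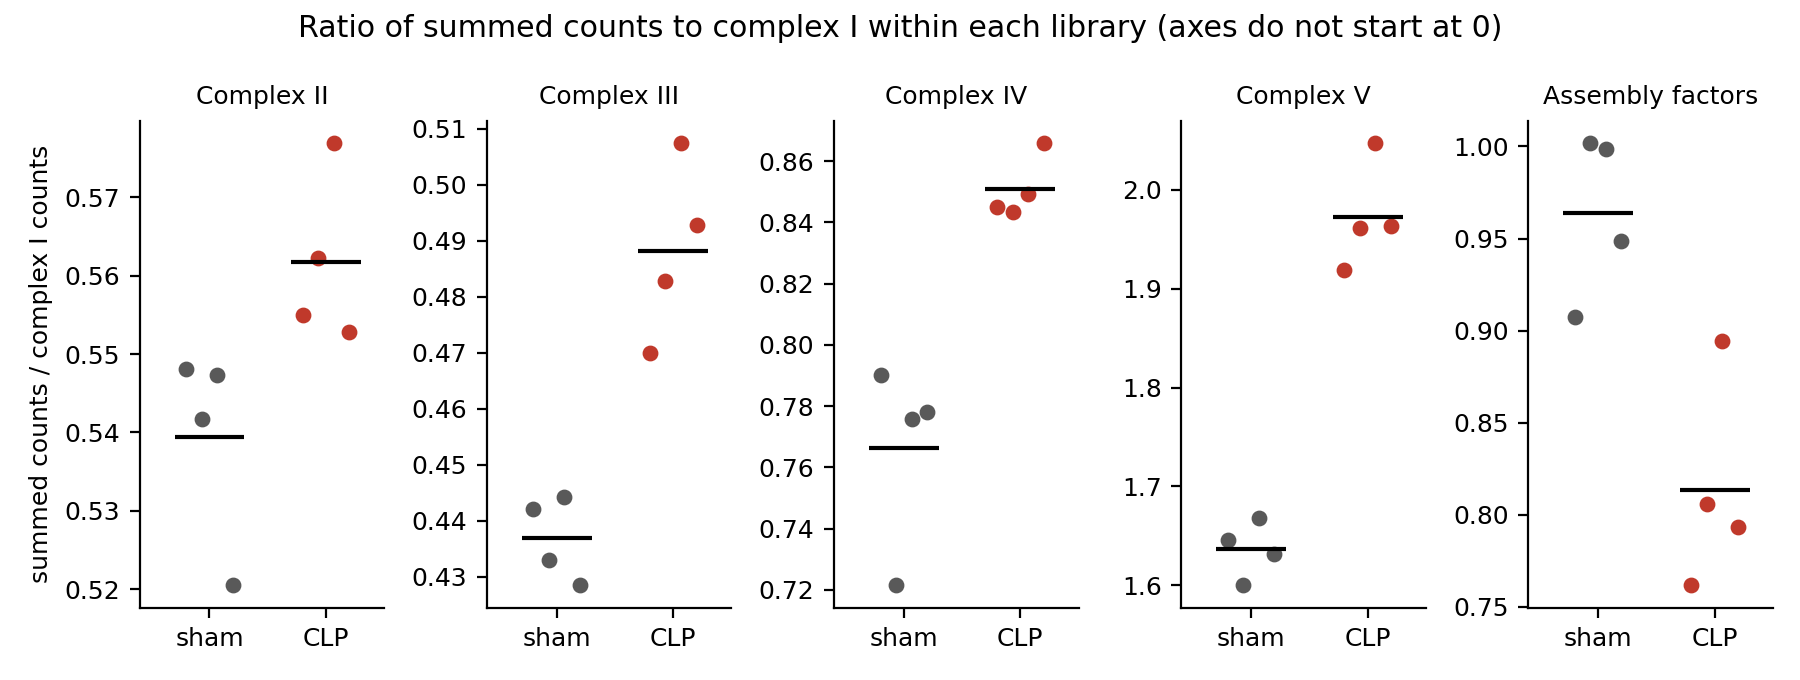
Summed counts of complexes II, III, IV and V and of the assembly factors divided by the summed counts of the complex I members in the same library, for 4 sham (grey) and 4 CLP (red) libraries, with group means (bars); vertical axes do not start at 0. All 5 ratios separate the groups, with CLP above sham for the complexes (1.97 against 1.64 for complex V) and below sham for the assembly factors (0.814 against 0.964).

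Assembly factors, the chaperones and insertion proteins that build the complexes without staying in them, spanned a wider range than the subunits, from -2.12 to 0.54 on the log2 scale. Of 52 tested in 5 lists, 14 were lower and 1 was higher, with a median log2 fold change of -0.28, and 22 lower and 2 higher at an unadjusted p under 0.05. Among all genes 23.5% were lower and 19.8% higher, so the share of lower assembly factors lay near that of genes at large. Scaling by library totals left 0 higher and 36 lower (median -0.60), beside 1286 higher and 6435 lower of all 14004 genes. Without CLP replicate 4 or Sham replicate 4, 9 were lower, and without CLP replicate 1 or Sham replicate 3, 2 were higher. In each library their summed counts were 0.907 to 1.00 times those of complex I in sham and 0.762 to 0.894 times after CLP.

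For complex I, 5 of 16 assembly factors were lower and 0 higher, and 3 were lower without CLP replicate 4 or Sham replicate 4. Tmem126b, part of the assembly complex for the membrane arm, was at 19.0, 16.1, 16.3 and 21.9 CPM in sham and 3.59, 4.09, 4.38 and 4.83 CPM after CLP. Every CLP library was far below every sham library, and Tmem126b fell by 2.12 on the log2 scale (SE 0.15, adjusted p = 2.49e-06), or by 2.44 with library totals. Ndufaf1 and Tmem186, partners in the same assembly complex and named after their values were seen, fell by 1.22 and 1.15 on the log2 scale. Acad9, which shares that complex, fell from 17.3 ± 2.4 to 13.1 ± 0.6 CPM (-0.40, adjusted p = 0.0192, but up to 0.0754 without CLP replicate 4 or Sham replicate 1 or 4). Ecsit, also of that complex and named after its values were seen, was the fifth (-0.44, adjusted p = 0.0229).

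For the other complexes the lists split as follows. Of 6 complex III factors 3 were lower and 0 higher, and Uqcc3 and Uqcc1, which act on cytochrome b, fell by 0.89 and 0.35 (adjusted p = 0.00174 and 0.0076). Of 21 complex IV factors tested 4 were lower and 0 higher, not above the 23.5% of all genes that were lower. The lower count was 2 with DESeq2 size factors and without CLP replicate 4 or any single sham library, and 7 with limma-voom. Cox15, which makes the heme a of cytochrome oxidase, was at 35.3, 32.2, 34.0 and 30.5 CPM in sham and 19.3, 20.2, 19.3 and 17.3 CPM after CLP (-0.79, SE 0.09, adjusted p = 4.94e-05). Taco1, the translational activator of the mitochondrial Cox1 mRNA, fell by 1.58 from 6.01 ± 0.69 CPM and was named after its values were seen. Surf1 fell by 0.30 (adjusted p = 0.0362), a call lost with DESeq2 (0.058) and without any single library but CLP replicate 2 (adjusted p up to 0.166). The 5 complex V factors had 1 lower, Atpaf1 (-0.67, adjusted p = 0.00989), which binds the beta subunit before it enters the head. Of 4 complex II factors 1 was higher, Sdhaf1 (0.54, adjusted p = 0.0147, and 0.23 without a call with library totals), and 1 lower, Sdhaf2 (-0.25, adjusted p = 0.0404, 0.0773 with DESeq2, and up to 0.179 without any single library but CLP replicate 3).

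**Figure D4:**
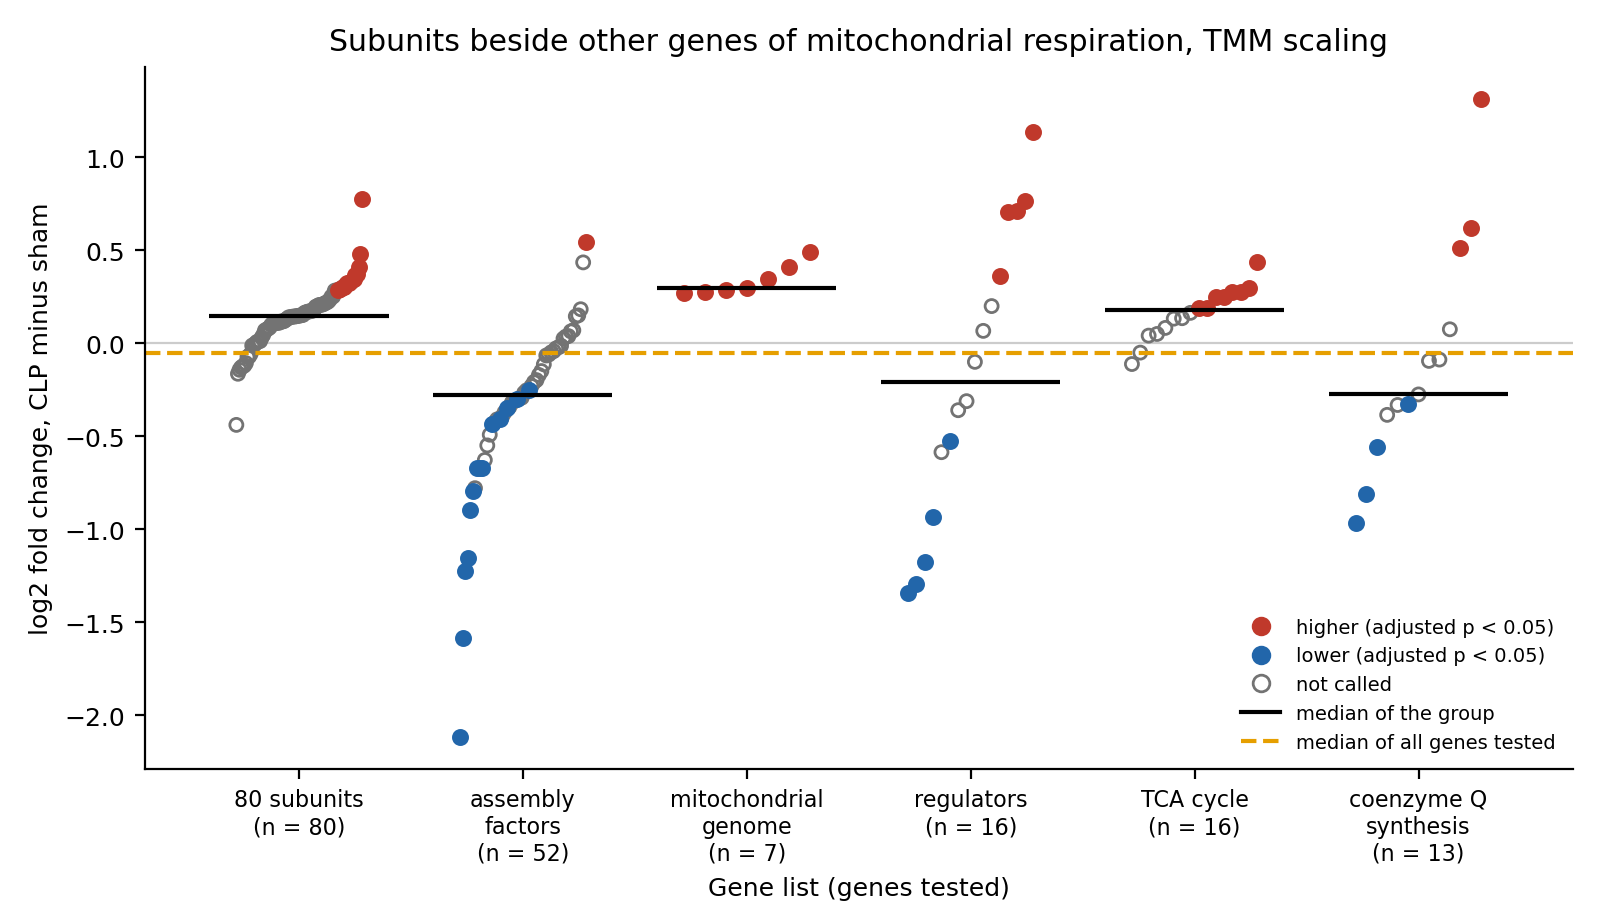
Log2 fold change, CLP minus sham with TMM scaling, of each tested gene (points) among the 80 subunits and the lists of assembly factors, mitochondrial genome subunits, transcription regulators, tricarboxylic acid cycle enzymes and coenzyme Q synthesis genes, with list medians (black bars) and the median of all genes tested (dashed line). Subunits span -0.44 to 0.77, whereas assembly factors reach -2.12; with library totals every list median shown lies below 0.

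The mitochondrial genome encodes the other 13 subunits of these complexes. Of these, 7 were tested and all 7 were higher with TMM scaling, with a median log2 fold change of 0.30. Among all genes tested 19.8% were higher, and 51.4% of those at 100 CPM or more, whose median was 0.24. Of the 7, all but mt-Nd6 lie at that level. With library totals 0 of 7 were called and their median was -0.02, beside 7721 called of all 14004 genes. mt-Nd1 was at 362, 319, 343 and 359 CPM in sham and 528, 495, 460 and 459 CPM after CLP, without overlap (0.49, SE 0.08, adjusted p = 0.000377). mt-Nd6 had the lowest value (0.27, adjusted p = 0.00707, and -0.05 with library totals). The other 6 (mt-Nd3, mt-Nd4l, mt-Co2, mt-Co3, mt-Atp6 and mt-Atp8) are listed at 0 in every library, although every cell with mitochondria uses them. Their level therefore could not be read from this table.

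Transcription regulators of respiratory genes moved both ways. The test called 5 of 16 higher and 5 lower, beside 19.8% and 23.5% of all genes. Library totals gave 3 and 9, beside 1286 and 6435 of all 14004 genes. Gabpb1, a subunit of the factor GABP, was at 27.6, 27.9, 29.8 and 25.4 CPM in sham and 60.7, 58.3, 58.0 and 66.4 CPM after CLP, a rise of 2.20-fold (log2 fold change 1.14, SE 0.08, adjusted p = 2.53e-06). Gabpb2, the other beta subunit, was at 97.4, 107, 113 and 123 CPM in sham and 66.0, 78.9, 84.6 and 76.9 CPM after CLP, and it fell by 0.52 on the log2 scale (SE 0.09, adjusted p = 0.00107). The DNA-binding partner Gabpa was at 54.5 ± 3.2 and 50.8 ± 2.2 CPM and did not pass (adjusted p = 0.299); Gabpb2 and Gabpa were picked after seeing their values. Ppargc1b, the coactivator PGC-1 beta, was at 20.4, 20.8, 18.9 and 23.2 CPM in sham and 8.20, 8.79, 9.26 and 7.74 CPM after CLP, and it fell by 1.29 on the log2 scale (adjusted p = 9.4e-06). Esrra, the nuclear receptor that works with this coactivator, fell by 0.94, Polrmt, the mitochondrial RNA polymerase, by 1.18, and Tfb1m by 1.34. Besides Gabpb1, the higher regulators were Hif1a (0.77), Myc (0.71), Pprc1 (0.71) and Yy1 (0.36). Nrf1 did not pass (0.20). These genes, from Esrra to Nrf1, were named after their values were seen.

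Tricarboxylic acid cycle and pyruvate dehydrogenase genes, which feed the chain with NADH and succinate, were higher for 8 of 16 and lower for 0, with a median of 0.18. These shares stand beside the 19.8% and 23.5% of all genes. Leaving out CLP replicate 1 or CLP replicate 4 gave 3 higher, and leaving out CLP replicate 2, Sham replicate 2 or Sham replicate 3 gave 5. With no filter on low counts 5 were higher. Scaling by library totals left 0 higher and made 4 lower (median -0.14), beside 1286 and 6435 of all 14004 genes. Dlst, a subunit of the 2-oxoglutarate dehydrogenase complex, rose from 163 ± 8 to 221 ± 5 CPM (0.43, SE 0.06, adjusted p = 0.000291, and 0.12 without a call with library totals). Pdhb had the lowest called value (0.19, adjusted p = 0.0424), lost with 1 surrogate variable (0.0524), with no filter on low counts (0.244), and without any single library but CLP replicate 3 and Sham replicate 1 (adjusted p up to 0.0979), and below 0 with library totals (-0.13).

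Of 13 coenzyme Q synthesis genes tested, 3 were higher and 4 lower, beside 19.8% and 23.5% of all genes. The numbers became 2 and 2 without Sham replicate 1. Library totals gave 2 and 8, beside 1286 and 6435 of all 14004 genes. Coq10b, a coenzyme Q binding protein, was at 36.3, 39.6, 38.8 and 30.3 CPM in sham and 92.9, 109, 73.4 and 84.6 CPM after CLP (1.31, SE 0.13, adjusted p = 1.79e-05). Coq3, a methyltransferase of the pathway, was at 7.64, 9.35, 7.46 and 7.44 CPM in sham and 3.72, 3.68, 4.66 and 4.24 CPM after CLP, and it fell by 0.97 (adjusted p = 0.000577). Both genes kept their direction and call with library totals.

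Because abundant genes tended to be higher and rare genes lower after CLP, members were also set beside genes of like mean level, a comparison chosen after seeing the data. Between 5 and 20 CPM all 3304 tested genes had a median of -0.25 and the 21 members one of 0.15, and 21 of 21 members lay above the median of that band. Between 20 and 100 CPM the medians were -0.01 and 0.15, with 41 of 47 members above. At 100 CPM or more the members' median of 0.17 was below the 0.24 of all genes, with 2 of 6 above, and these 6 include Atp5a1 and Atp5b. Assembly factors between 5 and 20 CPM had a median of -0.30, with 11 of 27 above the band's median and 29.6% lower, against 35.5% of all genes. Between 20 and 100 CPM their median was -0.20, with 1 of 7 above the band's median. There 3 of 7 were lower (42.9%, against 24.7% of all genes). Between 1 and 5 CPM 7 of 17 assembly factors lay above the band's median, and 17.6% were lower, against 24.2% of all genes.

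**Figure D5:**
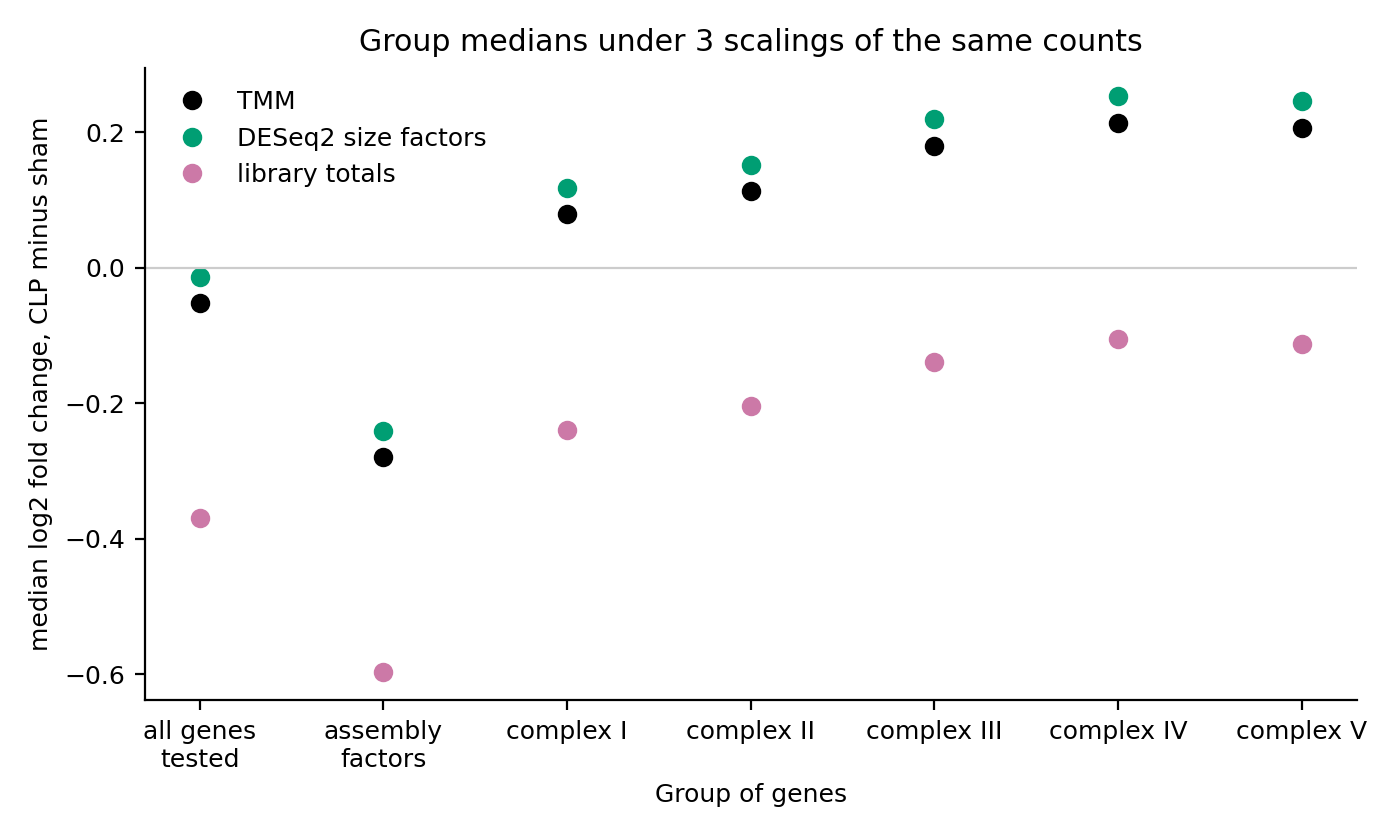
Median log2 fold change, CLP minus sham, of all genes tested, of the assembly factors and of the members of each complex, under TMM factors (black), DESeq2 size factors (green) and library totals (pink). The complexes' medians lie above that of all genes under each of the 3 scalings, an order that a change of scaling can hardly alter. They lie above 0 only with the first 2. With library totals complex I is at -0.24 and complex V at -0.11.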

How the data were processed

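RNA from 4 CLP and 4 sham libraries was prepared with a stranded TruSeq kit and read on an Element AVITI, per the labels' protocols. The authors deposited raw counts per Ensembl gene in 1 table. The submitters' processing notes list FastQC, STAR 2.7.10b, featureCounts, DESeq2 and mm39 without saying what each did. Neither the strand setting nor the annotation release nor the handling of multiply matching reads is stated there, so genes with near-identical copies or with an overlapping gene on the opposite strand are uncertain.

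GENCODE M21 supplied symbols, including older ones such as Atp5a1, for 52081 of the 55414 rows (3333 had none), and the principal transcript's length for CPM per kilobase. RefSeq windows are on GRCm38.p6, an older build than mm39, and 2 members were matched by synonym. Totals per library are given in the report, and the standard errors carry the counting precision. In edgeR 4.0.16 (R 4.3.3), filterByExpr retained 14004 genes. TMM factors spanned 0.873 to 0.915 for CLP and 1.08 to 1.15 for sham. A robust quasi-likelihood F-test set CLP against sham with no covariate, all 14004 p-values entered the Benjamini-Hochberg adjustment, and 0.05 was the threshold. SEs were derived from the fold change and F. Paralog ratios (log2 of counts plus 0.5) were tested by exact permutation over 70 assignments. The edgeR fit was tested on simulated data in which few genes changed, in both directions. The choice of scaling was not tested there. No pair of libraries in a group was as alike as repeat counting of 1 library (lowest chi-square per degree of freedom 9.25).

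Sample titles gave the groups and numbers. Alternatives were DESeq2 1.42.0, limma-voom (limma 3.58.1), DESeq2 size factors, library totals, no filter on low counts, 10 counts in 4 libraries as filter, 1 surrogate variable (sva 3.50.0), a replicate block, a larger prior count of 5 in the ratios, and leaving out each library. Bands of mean CPM and a table without mitochondrial genome rows were chosen after seeing the data. The naming rule took, at a mean of 5 CPM, the 3 highest and 3 lowest called members of each complex and the highest and lowest called gene of each pathway list, plus the member with the highest level per kilobase in each complex and a set of well-known subunits; 1 gene the rule takes is not reported here. Of the assembly lists, Coa1 was not analysed here and Pet117 is listed at 0. A list of related genes had 0 of 5 tested genes called (0 at an unadjusted p under 0.05 in edgeR). The member Cox6b2 was among these 5, and the others lay outside the rule. Members and lists were chosen with earlier results of these data known. Matplotlib 3.10.9 under Python 3.11.15 drew the figures.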

Additional observations from a re-analysis of the deposited data

Results flagged for a closer look

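In 5 of 92 groups of 4 libraries that were looked at, 1 library lay far from the other 3 by Dixon's criterion for a gap, and chance alone gives about 1 group in 20. Atp5l was at 8.17 CPM in CLP replicate 3, with the other CLP libraries at 4.36 to 4.90 CPM. Sdhd was at 69.9 CPM in the same library, with the others at 79.2 to 79.5 CPM. In Sham replicate 1, Sdha was at 220.0 CPM beside 198 to 199 CPM, and Uqcrfs1 at 46.9 CPM beside 39.3 to 39.6 CPM. Coq3 was at 9.35 CPM in Sham replicate 2, with the other sham libraries at 7.44 to 7.64 CPM.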

How the results depend on the processing

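With library totals the share of higher genes among all calls was 16.7%, against 45.6% with TMM factors. Of all 14004 genes tested, 1286 were higher and 6435 lower with library totals. The subunits then numbered 0 higher and 18 lower (complex I 0 higher and 13 lower, complex II 0 and 2, complex III 0 and 1, complex IV 0 and 0, complex V 0 and 2), and the assembly factors 0 and 36. Single genes that turned negative there were Atp5d (-0.0279), Atp5g1 (-0.0217), Atp5g2 (-0.15), Atp5g3 (-0.018), Atpif1 (-0.17), Cox4i1 (-0.15), Cox4i2 (-0.003902), Cox5a (-0.10), Cox6a1 (-0.0354), Cox7a2 (-0.10), Cox7a2l (-0.21), Cox7b (-0.0351), Cyc1 (-0.17), Ndufa4 (-0.11), Ndufv1 (-0.19), Pdhb (-0.13), Sdha (-0.21), Sdhb (-0.23), Sdhc (-0.20), Sdhd (-0.17), Uqcrb (-0.0146), Uqcrh (-5.459e-05) and mt-Nd6 (-0.0481). DESeq2 gave 19 higher subunits (complex I 1, complex IV 5) and 2 higher assembly factors, and DESeq2 size factors in edgeR gave 1 for complex I, 4 for complex IV and 2 assembly factors. With no filter on low counts complex IV had 0. Without single libraries the higher subunits numbered 7 (without CLP replicate 1 or 4) to 20 (without CLP replicate 3 or Sham replicate 1). They numbered 0 to 2 for complex I, 0 to 1 for complex II, 1 to 6 for complex III and 0 to 7 for complex IV, and no member was lower (0 to 0). For complex V the count was 5 to 7. Assembly factors numbered 1 to 2 higher and 9 to 17 lower, with the 9 without CLP replicate 4 or Sham replicate 4. The log2 fold change of Ndufs1 ranged from -0.0861 without CLP replicate 3 to 0.0041 without Sham replicate 1. The difference in within-library log2 ratio, Atp5g1 to Atp5g3, ranged from -0.0481 to 0.0367 and the Cox4i2 to Cox4i1 difference from -0.0483 to 0.294 without single libraries, where the smallest p the exact test allows is 0.0571. The causes were not tested.

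Same-numbered libraries deviated together in 1 of 4 pairs only (correlations 0.0743, -0.0377, 0.261 and -0.192), so the numbers were not taken as pairs. With the replicate block 15 subunits were higher, 6 of them in complex IV, and 2 assembly factors were. At this depth, genes with few counts per library, such as Cox6b2 (SE 0.55 on the log2 scale), could not show changes of the size seen in abundant subunits.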

Other observations

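Genes close to the set but outside its symbols gave these values. Ndufb1-ps, a gene row named as a pseudogene and left out for that name, was at 21.9, 20.1, 20.1 and 23.1 CPM in sham and 30.4, 24.3, 28.3 and 29.4 CPM after CLP, and it was called higher (log2 fold change 0.40, SE 0.10, adjusted p = 0.00728 in edgeR). Usmg5, a small ATP synthase protein under an older symbol, was at 5.44 ± 1.10 CPM in sham and 7.25 ± 1.21 CPM after CLP (SD, n = 4) and did not pass (0.41, adjusted p = 0.108). Ndufab1, the acyl carrier protein found in complex I, was at 12.2 ± 1.3 and 10.9 ± 1.9 CPM and did not pass (-0.16, adjusted p = 0.42).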
